A study of Mus musculus with 10 samples.

Results

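Cochlear inner hair cells (IHCs) were examined in droplet libraries of single cells from the inner ear of old CBA/J mice. They were chosen by measured UMI counts among the cochlear cell barcodes with at least 200 genes, at least 1000 unique molecular identifiers (UMIs, one per captured RNA molecule) and less than 25% mitochondrial UMIs. A cell was taken as an IHC when it held a UMI in at least 3 of the 6 hair cell (HC) genes Myo6, Myo7a, Pou4f3, Tmc1, Kncn and Gfi1, held Otof, held more Otof than Ocm UMIs, and held no Slc26a5 UMI. This rule found 119 cells among 7272 kept cochlear cells and 17696 kept cells of both organs. A UMI in 2 or more of the 5 supporting cell genes Slc1a3, Gjb2, Gjb6, Sox10 and Sox9 was found in 77 of them, and these cells are reported apart from the other 42. All groups were wild-type CBA/J mice of 22 months and of both sexes, without treatment, and several mice were pooled in each library. The same rule applied to the vestibular sensory epithelia gave 1490 vestibular HCs (vHCs), of which 1141 held fewer than 2 supporting cell genes. Type II vHCs below were chosen by the same HC genes, a Sox2 UMI, no Adam11 UMI and fewer than 2 supporting cell genes. No condition was set on Otof, Ocm or Slc26a5, so these 176 cells are not a subset of the 1141. Outer hair cells (OHCs) of the cochlear libraries held the same HC genes, an Ocm UMI and more Ocm than Otof UMIs. Slc26a5 was not part of their rule, and 71 of these cells held fewer than 2 supporting cell genes. Unless stated otherwise, the levels below are of all 119 IHCs, and of the vHCs and OHCs with fewer than 2 supporting cell genes. Statements that libraries were separate, and the fold limits, use the same cells. Cells with supporting cell RNA were thus left out of the vHCs and OHCs but not of the IHCs, and the part of this in the separation was not tested. No young ear was part of the data used here, and no change with age is described.

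IHCs are the sensory receptors that pass sound to the auditory nerve. Their hair bundle opens mechanotransduction channels, calcium enters through channels at the ribbon synapse, and vesicles that carry glutamate are released through the calcium sensor otoferlin. OHCs amplify sound through the motor protein prestin, the product of Slc26a5, and vHCs of the balance organs keep a kinocilium that mature cochlear HCs lose. The choice of cells used Otof, Ocm, Slc26a5, the 6 HC genes and the 5 supporting cell genes, so the levels of these genes are given below as a description only, and a contrast of IHCs with OHCs carries no test because both were sorted by them.

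The 4 independent cochlear libraries differed in size. They held between 2738036 and 26974948 UMIs, and replicate 3 was the largest. Replicate 2 shared 1313 barcodes with replicate 1 in the cochlea and 1633 in the vestibule, and over these barcodes the pair differed by no more than counting noise. It was therefore counted as 1 sample, represented by replicate 1. No IHC barcode was shared between any other pair of libraries. The IHCs numbered 18, 63, 14 and 24 in replicates 1, 3, 4 and 5, and their median depths were 8429, 10854, 17841.5 and 9236 UMIs. They were 3.15%, 1.24%, 2.01% and 2.56% of the kept cells of these libraries (95% exact binomial intervals 1.88 to 4.94, 0.956 to 1.59, 1.11 to 3.36 and 1.65 to 3.79, which cover counting error only). Cells with fewer than 2 supporting cell genes numbered 0, 29, 3 and 10, so replicate 1 gave none.

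Some of these cells stood apart from the others. The 10 cells of replicate 5 with fewer than 2 supporting cell genes were shallow, with a median of 2383 UMIs and 1.93% mitochondrial UMIs, and 1 UMI in their sum equals 36.9 CPM (UMIs of a gene scaled to a sum of 1000000). In replicate 3, 9 of the 63 cells held no Rorb UMI and 30 to 181 Spp1 UMIs each, and they are described separately. In replicate 4, one cell held 2580 of the 2581 Hbb-bs UMIs of that library's IHCs, and beta globin is a product of red blood cells. Hbb-bs was therefore 9819 CPM in replicate 4 and at most 302 CPM in the other libraries. List counts below that changed without the 9 cells of replicate 3 are given both ways.

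The IHC label was checked with Slc17a8, Slc7a14, Tbx2 and Shtn1, which the rule did not use. Slc17a8 (chr10:89574020-89621253, minus strand, GENCODE M21 on GRCm38), the vesicular glutamate transporter VGLUT3 that fills IHC vesicles, stood at 2220, 1796, 1119 and 2019 CPM in the IHCs of replicates 1, 3, 4 and 5. It stood at 284, 259, 235 and 298 CPM in vHCs and at 15.2, 243, 36.3 and 0 CPM in OHCs. Every IHC library was above every vHC and OHC library. A Slc17a8 UMI was seen in 73.8% of the 42 cells with fewer than 2 supporting cell genes and in 96.1% of the other 77, at median depths of 7536.5 and 14310 UMIs. With each cell thinned to 1000 UMIs the shares were 57.1% and 76.6%. Macrophages of the same libraries, which should lack the gene, held it in 0.739% of 541 cells at a median of 2722 UMIs, and in 0% after thinning, which allows a share of up to 0.555%.

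Tbx2, a transcription factor needed for IHC identity, ranged from 192 to 302 CPM in IHCs against 27.2 to 47.3 CPM in vHCs and 0 to 25.2 CPM in OHCs. Slc7a14, a transporter-family gene used as an IHC marker, ranged from 278 to 636 CPM in IHCs against 29.3 to 42.1 CPM in vHCs. Both sets of ranges were separate. Shtn1, which encodes shootin, behaved differently. It stood at 156, 153, 141 and 127 CPM in IHCs and at 0, 7.36, 0 and 0 CPM in OHCs, but at 509, 504, 714 and 634 CPM in vHCs, so it separated IHCs from OHCs and was lower than in vHCs. The 5 IHC markers together, Otof included, summed to 3470 to 5759 CPM in the IHC libraries and to 4997 CPM in type II vHCs, so their sum did not set IHCs apart from those. Of the genes in the rule, Otof averaged 2127 ± 463 CPM (SD, n = 4 libraries) in IHCs and 142 CPM in OHCs, and Ocm averaged 123 ± 90.8 CPM in IHCs and 29816 CPM in OHCs. In the shallow cells of replicate 5, Slc7a14 stood at 36.9 CPM and Ocm at 775 CPM, while Rorb and Calb2 stood at 2584 and 3654 CPM.

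**Figure D1:**
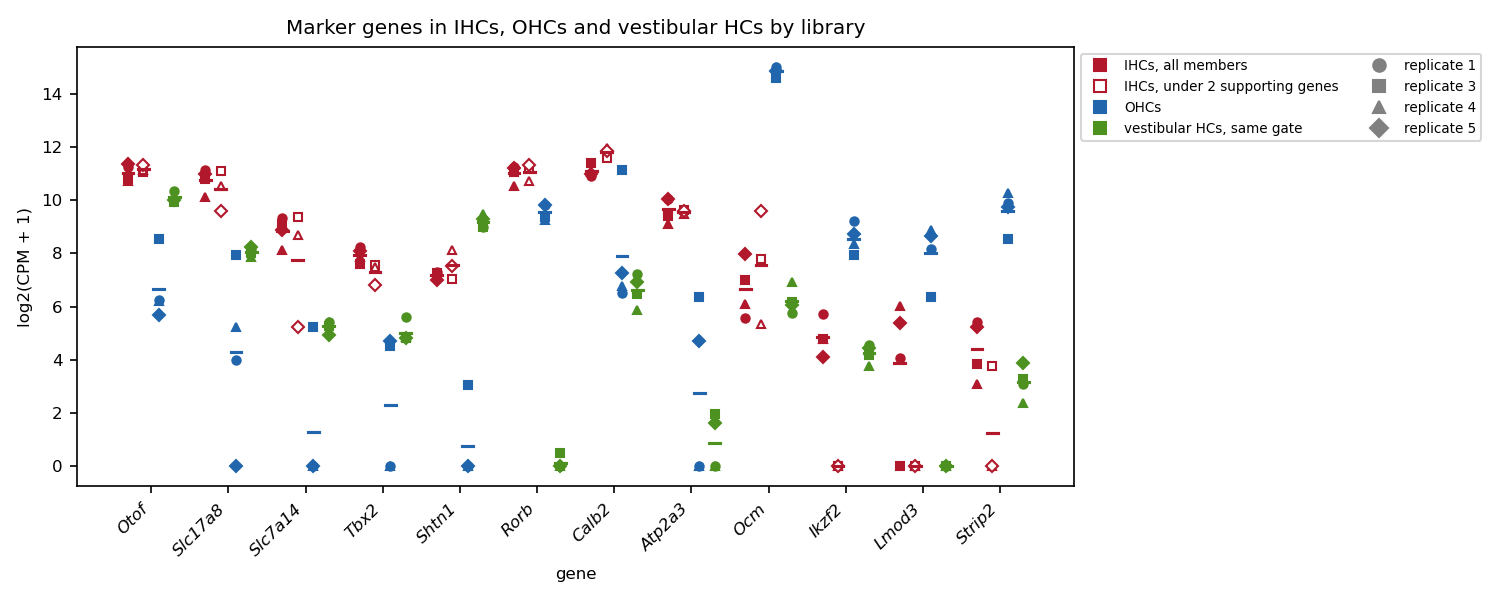
Marker genes by library. Each point is the summed level of one library on the log2(CPM + 1) scale (y axis) for the gene on the x axis, in IHCs (all members filled, members with fewer than 2 supporting cell genes open), OHCs and vHCs, and short lines are means of the points on that scale. Slc17a8, Slc7a14, Tbx2, Rorb and Calb2 lie above both other HC groups in the filled IHC points except that Calb2 of OHCs in replicate 3 reaches 2236 CPM, and Shtn1 lies below vHCs.

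The 9 cells without a Rorb UMI went against the IHC label. Rorb, an orphan nuclear receptor gene, was detected in the other 110 cells, in 56 of 71 OHCs and in 24 of 1490 vHCs of the same rule. The 9 cells all came from replicate 3, had a median of 4419 UMIs, and 4 of them held fewer than 2 supporting cell genes. Their summed Spp1 level was 20060 CPM against 5.73 CPM in the other 54 IHCs of that library, and no other IHC held more than 1 Spp1 UMI. Spp1 encodes osteopontin, a secreted glycoprotein, and it averaged 31481 CPM in vHCs. They held 34 UMIs of Cib3, 9 of Adam11, 7 of Meis2 and 5 of Myo3b, and the other 54 cells held none of these genes. Their Slc17a8 was 93.1 CPM against 1927 CPM, and Chst2, a sulfotransferase gene, had no UMI in them against 1294 CPM. The 2 genes that define the split were picked after their values were seen, and 1 UMI in the sum of these cells equals 18.6 CPM. Markers of other cell types also moved with the split. The erythroid genes summed to 3669 CPM in these 9 cells against 74.5 CPM in the other 54, the fibrocyte genes to 2235 against 222 CPM, the neuron genes to 838 against 77.4 CPM, the macrophage genes to 782 against 18.6 CPM and the B cell genes to 279 against 4.30 CPM. Antigen presentation genes summed to 726 against 119 CPM, and the part of these transcripts in the profile of the 9 cells was not tested. Counts in the comparisons below were repeated without these cells.

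**Figure D2:**
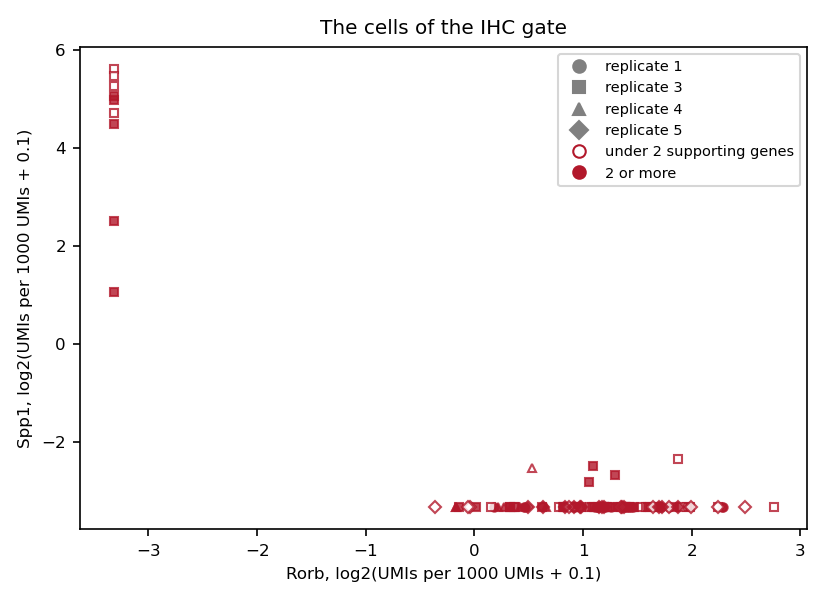
All IHCs by Rorb (x axis) and Spp1 (y axis), both as log2(UMIs per 1000 UMIs of the cell + 0.1). Each point is a cell, shapes are libraries and open points are cells with fewer than 2 supporting cell genes. The 9 cells at the left edge have no Rorb UMI and 30 to 181 Spp1 UMIs, and the other 110 have at most 1 Spp1 UMI.

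Most IHCs carried RNA of supporting cells, the glia-like cells that surround each HC. A UMI in at least 2 of the 5 genes was present in 100%, 54.0%, 78.6% and 58.3% of the IHCs in replicates 1, 3, 4 and 5, against 13.4% of all OHCs and 23.4% of all vHCs. The rule names these genes, so their shares are a description with no test. The share averaged 72.7% ± 21.1 in IHCs and 21.9% ± 3.55 in vHCs (SD, n = 4 libraries each), and the libraries did not overlap. IHCs were deeper than vHCs, with medians of 10899 and 4788.5 UMIs. After thinning every cell to 1000 UMIs, a UMI in at least 2 of the 5 genes remained in 33.3%, 7.94%, 14.3% and 16.7% of IHCs. In vHCs it remained in 7.89%, 5.49%, 4.29% and 5.74%. A UMI in any of the 5 genes remained in 66.7%, 33.3%, 64.3% and 41.7% of IHCs and in 19.7%, 23.7%, 19.3% and 13.5% of vHCs. The thinned shares with any of these genes in macrophages, which should lack them, were 3.03%, 17.3%, 3.85% and 13.2%. IHCs were above macrophages in every library. OHCs gave 20.8%, 16.7%, 0% and 21.4%.

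Some supporting cell genes outside the rule followed the same division of cells, and others did not. A Sparcl1 UMI was seen in 9.52% of the 42 cells with fewer than 2 supporting cell genes and in 9.09% of the other 77. For Fabp7 the shares were 4.76% and 2.60%. Epyc, which encodes an extracellular matrix proteoglycan, stood at 818, 221, 217 and 53.1 CPM in the IHCs of replicates 1, 3, 4 and 5. In the cells with fewer than 2 supporting cell genes it stood at 42.1 CPM in replicate 3 and 0 in replicate 5. Slitrk6, a membrane protein gene of supporting cells, ranged from 93.1 to 167 CPM over all IHCs and had no UMI in these 2 sums. Sox2, a transcription factor of supporting cells and type II vHCs, ranged from 67.9 to 224 CPM and also had no UMI there. Otog, which encodes otogelin of the acellular membranes, stood at 188, 102, 98.9 and 94.0 CPM in all IHCs and at 8.43 and 0 CPM in these cells. Whether the supporting cell RNA was from attached cells, from free RNA or from the IHCs themselves was not tested. Comparisons with vHCs are therefore given first for cells with fewer than 2 supporting cell genes and then for all cells.

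**Figure D3:**
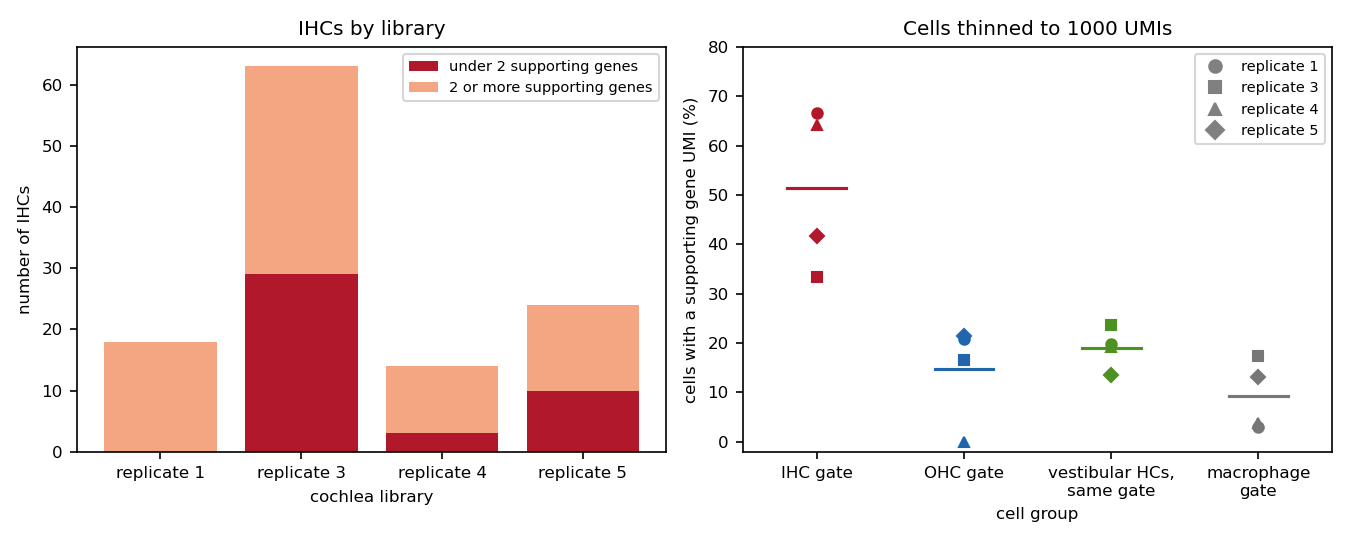
Supporting cell genes in IHCs. Left, the number of IHCs (y axis) per cochlear library (x axis), with bars split by cells with fewer than 2 and with 2 or more of the 5 supporting cell genes. Right, the percentage of cells with a UMI in any of these genes (y axis) after thinning each cell to 1000 UMIs, one point per library and a line at the mean, in which IHCs range from 33.3% to 66.7% and vHCs from 13.5% to 23.7%.

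Macrophage, granulocyte and endothelial markers were low in IHCs, and those of red blood cells were not. The 5 erythroid genes, led by Hbb-bs, summed to 511, 331, 14301 and 57.2 CPM in the IHCs of replicates 1, 3, 4 and 5 and to 94.7, 3903, 4016 and 7463 CPM in vHCs, and replicate 4 of the IHCs was above every vHC library. The 10 macrophage genes summed to 10.4, 73.2, 3.80 and 0 CPM in the IHCs of replicates 1, 3, 4 and 5, with Tyrobp the most abundant and 7 of the 10 without a UMI in the 42 cells, against 11011 CPM in the macrophages. The 7 granulocyte genes summed to at most 10.6 CPM in IHCs, against 1.89, 1703, 791 and 2386 CPM in vHCs, and the 6 B cell genes to between 0 and 23.9 CPM against 280 to 449 CPM. The 5 endothelial genes summed to at most 5.21 CPM in IHCs. The 7 neuron genes, led by Nefm, summed to between 65.4 and 132 CPM in IHCs and to between 1127 and 1723 CPM in vHCs. The 6 glia genes summed to 41.7, 192, 22.8 and 16.3 CPM in IHCs, highest in replicate 3, where the myelin gene Mbp stood at 126 CPM, and to between 16.8 and 49.2 CPM in vHCs. The 8 fibrocyte genes, led by Ptgds, summed to between 79.9 and 366 CPM in IHCs and to between 861 and 4739 CPM in vHCs. The 7 strial genes, led by Kcnj10, summed to 240, 134, 103 and 77.6 CPM in IHCs and to 51.1, 81.7, 44.6 and 46.1 CPM in vHCs. In the IHCs with fewer than 2 supporting cell genes they summed to 46.4 CPM in replicate 3 and 0 in replicate 5. The part of the transcripts of all these lists in the differences below was not tested.

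Near the limits of the rule, 14 IHCs held exactly 3 of the 6 HC genes, with a median of 3083.5 UMIs and 4.5 Otof UMIs. A further 15 cochlear cells were left out with 2 HC genes, at a median of 1979 UMIs and 3 Otof UMIs. In 18 IHCs Otof exceeded Ocm by only 1 to 3 UMIs, and 27 cells with the HC genes were left out because Otof did not exceed Ocm. No cell was lost through Slc26a5 alone. The 5 supporting cell genes gave 32, 10, 11, 15, 17 and 34 IHCs with 0, 1, 2, 3, 4 and 5 of them.

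IHCs differed from vHCs of the same rule in many genes. Summed UMIs per library were tested with the quasi-likelihood test of edgeR, with p-values adjusted by Benjamini-Hochberg and a threshold of 0.05, and the p-values measure only the spread between these pooled libraries. With cells of 2 or more supporting cell genes left out, 2 cochlear libraries had enough cells, replicate 3 with 29 and replicate 5 with 10, and they were set against 4 vestibular libraries. Of 8768 genes tested, 681 were higher in IHCs (7.77%) and 1127 lower (12.9%). With all cells, 4 libraries stood against 4, and of 9417 genes 1238 were higher (13.1%) and 1719 lower (18.3%). Without the 9 cells that lack Rorb the shares were 7.94% and 14% in the first comparison and 13.4% and 19.1% with all cells. Against the 176 type II vHCs alone, 9.35% of 4833 genes were higher and 15.3% lower, with a median of -0.09. Both comparisons called 569 genes higher and 960 lower, and 2 genes were called in opposite directions. The first comparison rested on replicate 3. Without it, only the 10 shallow cells of replicate 5 remained, assumed to vary like the other libraries, and 84 genes were higher and 282 lower while the median log2 difference of all genes went from -0.19 to -2.56. The medians of the lists below are read beside -0.19 for the first comparison and -0.03 for all cells, and the log2 differences are given in that order. The rule fixes the level of its own genes, which are left out of every list.

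Some transcription factors were nearly absent from one side. Rorb (chr19:18930605-19111196, minus strand) stood at 2439, 2157, 1495 and 2387 CPM in IHCs of replicates 1, 3, 4 and 5, and at 0, 0.415, 0 and 0 CPM in vHCs, which is a single UMI in 1141 cells (adjusted p = 2.15e-74 in cells with fewer than 2 supporting cell genes and 3e-13 in all cells). Gata3, a zinc finger factor of the cochlea, stood at 1657, 448, 571 and 670 CPM in IHCs and had no UMI in the vHCs with fewer than 2 supporting cell genes, a level at least 1417-fold higher against the floor of 3 counts over these vHCs, while the vHCs with 2 or more held 21 UMIs. Gata3 was also present at 312 CPM in the other cochlear cells. Rora, a second gene of the ROR family, stood at 1037, 730, 510 and 662 CPM against 96.5, 97.1, 82.5 and 123 CPM (log2 difference 2.73 ± 0.25 SE and 2.77 ± 0.23). Sall1 ranged from 95.1 to 245 CPM against 1.66 to 6.28 CPM (4.56 ± 0.58 and 2.57 ± 0.27), and Tbx2 was higher by 2.57 ± 0.35 and 1.99 ± 0.23. No library of all IHCs overlapped a library of the vHCs with fewer than 2 supporting cell genes for any of these 5 genes. Tbx2 was not called against type II vHCs alone (0.87, adjusted p = 0.0749).

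Other factors were lower in IHCs. Meis2 (chr2:115863064-116065839, minus strand), a homeobox gene, had UMIs in the IHCs of replicate 3 only, at 9.31 CPM, against 339 to 409 CPM in vHCs, and all of these UMIs were in the 9 cells without Rorb. Lhx3, a LIM homeobox gene, stood at 26.1, 29.3, 7.61 and 40.9 CPM against 288, 207, 213 and 185 CPM (-2.81 ± 0.47 and -2.58 ± 0.28), and Eya1 at 141, 41.2, 34.2 and 32.7 CPM against 204, 182, 146 and 205 CPM (-3.21 ± 0.53 and -1.64 ± 0.32). Both were separate from vHCs in every library. In the list of 18 HC transcription factors, 4 of the 14 tested were higher and 4 lower, beside 7.77% and 12.9% of all genes, with a median of -0.08, and with all cells 5 were higher and 4 lower, beside 13.1% and 18.3%, with a median of 0.35. Without the cells that lack Rorb, 5 were higher and 4 lower in the first comparison, beside 7.94% and 14% of all genes. Ikzf2, a factor of OHCs, was called lower in the first comparison (adjusted p = 0.0343) and not with all cells (0.30 ± 0.34, adjusted p = 0.545). It had no UMI in the 42 IHCs with fewer than 2 supporting cell genes. Its fitted value there thus depends on the model's prior count, and at the limit of 3 counts it was -0.63. With replicate 3 left out, only replicate 5 remained and the calls of Rora (log2 difference 1.46), Sall1 (2.67), Tbx2 (1.29) and Ikzf2 were lost. Without replicate 5, which left only replicate 3, the call of Ikzf2 was lost as well, and no direction can be read either time.

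At the ribbon synapse, 6 of the 22 genes tested were higher in IHCs and 2 lower, beside 7.77% and 12.9% of all genes, with a median of 0.13, and with all cells 6 of 21 were higher and 3 lower, beside 13.1% and 18.3%, with a median of 0.07. Slc17a8 was higher by 2.59 ± 0.40 and 2.71 ± 0.23. Rims2, an active zone scaffold, stood at 177, 169, 198 and 237 CPM in IHCs against 41.6, 63.9, 65.7 and 75.4 CPM in vHCs (1.64 ± 0.31 and 1.96 ± 0.22). Cabp1, a calcium-binding regulator of calcium channels, stood at 104, 81.2, 60.9 and 85.8 CPM against 26.5, 22.0, 21.0 and 23.0 CPM (2.47 ± 0.40 and 2.18 ± 0.22). These libraries did not overlap. Cacna1d, the pore of the presynaptic calcium channel, had 1 IHC library within the range of the vHCs, with 182, 168, 98.9 and 298 CPM against 127, 93.7, 91.8 and 111 CPM (1.38 ± 0.29 and 1.07 ± 0.25). Dmxl2, a gene of synaptic vesicles, was higher by 1.73 ± 0.32 and 1.50 ± 0.23.

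In the first comparison 2 members of the synaptic list were lower. Pclo, which encodes the scaffold piccolo, stood at 57.3, 58.5, 57.1 and 65.4 CPM against 102, 155, 162 and 166 CPM (-1.27 ± 0.41 and -1.08 ± 0.21). Kif1a, an axonal vesicle motor, ranged from 4.09 to 10.6 CPM against 37.7 to 60.6 CPM, and it had no UMI in the IHCs with fewer than 2 supporting cell genes. Both groups were separate in every library. Cabp2, the most abundant member after Otof and Slc17a8, was not called, with 651, 1361, 1446 and 1161 CPM against 1388, 1458, 1653 and 1120 CPM (adjusted p = 0.226 and 0.741). Leaving out replicate 3 lost the calls of Slc17a8 (log2 difference 0.96), Rims2 (0.65), Cabp1 (2.12), Cacna1d (1.26) and Dmxl2 (1.15). It also lost those of Pclo and Kif1a, which had no UMI in the 10 cells left, so that no direction can be read. Only replicate 5 was then left, and leaving out replicate 5 left only replicate 3 and lost the call of Pclo (-1.03). Against the 176 type II vHCs alone, the difference of Slc17a8 was 0.94 (adjusted p = 0.0809) and that of Pclo -0.97 (0.119), and neither was called.

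Calcium handling genes differed in both directions. Of 12 genes tested, 6 were higher and 4 lower, beside 7.77% and 12.9% of all genes, with a median of 0.26. With all cells 7 were higher and 4 lower, beside 13.1% and 18.3%, with a median of 0.71. Calb2 (chr8:110137502-110168210, minus strand), the calcium buffer calretinin, stood at 1939, 2686, 2131 and 2035 CPM in IHCs and at 148, 87.1, 57.2 and 121 CPM in vHCs (4.92 ± 0.25 and 4.32 ± 0.24). Atp2a3, the endoplasmic reticulum calcium pump SERCA3, stood at 1042, 677, 555 and 1067 CPM against 0, 2.90, 0 and 2.09 CPM (adjusted p = 4.06e-54 and 2.9e-11). Pvalb, the buffer parvalbumin, was higher by 2.80 ± 0.24 and 2.51 ± 0.23.

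The plasma membrane calcium pumps went in opposite directions. Atp2b2 (PMCA2, chr6:113743831-114042613, minus strand), the pump of HC bundles, stood at 36.5, 29.3, 34.2 and 0 CPM in IHCs and at 1471, 1217, 1560 and 1317 CPM in vHCs (-5.48 ± 0.42 and -5.21 ± 0.37), and 59.1% of its UMIs in replicate 3 were in the 9 cells without Rorb. Atp2b1 (PMCA1) stood at 1079, 713, 837 and 1103 CPM against 197, 215, 260 and 251 CPM (1.36 ± 0.26 and 1.57 ± 0.20), but without replicate 3 its difference in the first comparison was -0.05 (adjusted p = 0.955), and against type II vHCs alone it was 0.12 (0.824). The sodium-calcium exchanger gene Slc8a1 had no UMI in any IHC against 15.3 to 47.3 CPM in vHCs, at least 13.1-fold lower against the floor of 3 counts over all IHCs. Its call in the first comparison was lost without replicate 3 (adjusted p = 0.576), without replicate 5 (0.0637), without cells of over 3 times the median UMIs (0.0683) and with DESeq2 (0.0825). S100a1, a calcium-binding protein gene, changed direction with the cells used. It was lower in cells with fewer than 2 supporting cell genes (-1.19 ± 0.25), at 1644 and 1735 CPM in replicates 3 and 5, and higher with all cells (0.77 ± 0.23). The call with all cells was lost without cochlear replicate 4 (0.57, adjusted p = 0.0723) and without vestibular replicate 5 (0.64, 0.0668). The other cochlear cells held 10608 CPM of S100a1.

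Of the mechanotransduction genes, 2 of 9 tested were higher and 3 lower, beside 7.77% and 12.9% of all genes, with a median of 0.12, and with all cells 3 were higher and 3 lower, beside 13.1% and 18.3%, with a median of -0.14. The 2 related calcium-binding subunits Cib2 and Cib3 went opposite ways. Cib2 (chr9:54544794-54560218, minus strand) stood at 1689, 1735, 2131 and 1757 CPM in IHCs, 2686, 1839, 3413 and 2744 CPM in OHCs, and 239, 186, 197 and 289 CPM in vHCs (3.31 ± 0.23 and 2.94 ± 0.22 against vHCs). Cib3 (chr8:72204335-72212837, minus strand) had UMIs in the IHCs of replicate 3 only, at 45.2 CPM, and all of them were in the 9 cells without Rorb. In vHCs it stood at 1776, 1710, 1797 and 1512 CPM. Tmc2 (chr2:130195194-130264445, plus strand), a channel subunit gene beside Tmc1, had no UMI in IHCs or OHCs against 41.6, 62.2, 84.2 and 59.7 CPM in vHCs, at least 30.0-fold lower in IHCs. Tmie, a channel partner, stood at 41.7, 69.2, 68.5 and 40.9 CPM against 257, 217, 262 and 230 CPM (-1.44 ± 0.37 and -1.77 ± 0.24). Lhfpl5, which links the channel to the tip link, was higher by 1.06 ± 0.25 and 1.13 ± 0.23, from 448 to 841 CPM against 329 to 382 CPM. Without replicate 3 the call of Lhfpl5 (log2 difference 0.16) was lost. That of Tmc2 was lost too, and no direction can be read, because Tmc2 had no UMI in the cells left. Against type II vHCs alone Lhfpl5 was not called (0.21, adjusted p = 0.632). Tmc1, which was part of the rule, averaged 279 CPM in IHCs and 483 CPM in vHCs.

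The hair bundle genes differed in both directions. In the list of stereocilia core and length genes 4 of 28 tested were higher and 10 lower, beside 7.77% and 12.9% of all genes, with a median of -0.51. With all cells 8 of 29 were higher and 12 lower, beside 13.1% and 18.3%, with a median of -0.15. Espn, the actin bundler espin, stood at 412, 577, 498 and 503 CPM in IHCs against 2580, 2225, 2635 and 1882 CPM in vHCs (-1.86 ± 0.27 and -1.75 ± 0.21). Xirp2, an actin-binding gene of HC bundles, stood at 83.4, 165, 83.7 and 180 CPM against 1585, 1457, 1269 and 1293 CPM (-2.77 ± 0.31 and -2.96 ± 0.26), and 34.7% of its UMIs in replicate 3 came from the 9 cells without Rorb. The vHC levels were several times the IHC levels in every library. Espnl, a relative of Espn, and Ptprq were also lower, Espnl from 3.80 to 12.3 CPM against 149 to 329 CPM, and Ptprq, a bundle phosphatase, from 190 to 378 CPM against 1344 to 1836 CPM (-1.45 ± 0.27 and -1.89 ± 0.25). The 2 class III myosins that carry espins differed in direction. Myo3a ranged from 62.5 to 180 CPM against 24.6 to 42.9 CPM (2.40 ± 0.35 and 1.97 ± 0.28), while Myo3b had UMIs in IHCs of replicate 3 only, at 6.65 CPM, all in the 9 cells without Rorb, against 174 to 214 CPM. Ptprq was not called against type II vHCs alone (-0.32, adjusted p = 0.415).

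Gpsm2, a gene for planar polarity and elongation of the bundle, was higher in IHCs by 1.55 ± 0.37 and 1.28 ± 0.23. Among 5 ankle link and Usher 2 genes tested, Whrn, the scaffold whirlin, was higher by 2.00 ± 0.40 and 1.96 ± 0.22 (83.4 to 106 CPM against 22.0 to 39.8 CPM), and Pdzd7 was lower by 2.78 ± 0.79 and 3.25 ± 0.45 on the log2 scale (0 to 10.4 CPM against 39.6 to 73.8 CPM). The ranges did not overlap. One of the 5 was higher and one lower, beside 7.77% and 12.9% of all genes, and their median was -0.97, or -0.19 with the gene that had no UMI in the IHCs of this comparison set at its limit, and with all cells 2 of 4 were higher and 2 lower, beside 13.1% and 18.3%, with a median of -0.17. The median turned to 1.01 over the 3 genes tested against type II vHCs alone. Of these, 2 were higher and 0 lower, beside 9.35% and 15.3% of all genes in that comparison. Without replicate 3 the calls were lost for Gpsm2 (log2 difference 1.17), Myo3a (1.17), Pdzd7 (-1.17) and Whrn, whose direction turned (-0.24). Gpsm2 was not called against type II vHCs alone (1.02, adjusted p = 0.0635).

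Of the potassium channel and related genes 1 of 10 tested was higher and 3 lower, beside 7.77% and 12.9% of all genes, with a median of -0.80. With all cells 1 was higher and 5 lower, beside 13.1% and 18.3%, with a median of -0.74. Without the cells that lack Rorb 4 were lower in the first comparison, beside 14%. With all other cells 2 were higher and 5 lower, beside 13.4% and 19.1%. The median turned to 0.76 over the 7 genes tested against type II vHCs alone. Of these, 4 were higher and 3 lower, beside 9.35% and 15.3% of all genes. Lrrc52, an auxiliary subunit of the BK channel, stood at 36.5, 141, 148 and 110 CPM in IHCs, 75.9, 58.8, 36.3 and 201 CPM in OHCs and 0, 0.83, 0.842 and 0 CPM in vHCs (adjusted p = 1.96e-26 and 5.03e-10 against vHCs). It was thus a gene of both cochlear HC types. Kcnh7, an ERG channel, had UMIs in the IHCs of replicate 3 only, at 5.32 CPM, all in the 9 cells without Rorb. In vHCs it stood at 75.7 to 105 CPM. Kcna10 was the most abundant potassium channel gene of IHCs, with 438, 498, 301 and 441 CPM against 1191, 1033, 833 and 762 CPM in vHCs, and its call depended on the comparison (-0.57 ± 0.26, adjusted p = 0.112, and -0.69 ± 0.21, adjusted p = 0.0156). Against type II vHCs alone it was higher in IHCs (0.76, adjusted p = 0.0373). The call of Kcnh7 was lost without replicate 3, and it had no UMI in the cells left, so that no direction can be read.

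The nicotinic receptor that receives efferent fibres was low in IHCs. Chrna9, one of its 2 subunits, stood at 5.21, 31.9, 0 and 8.17 CPM in IHCs, against 282, 296, 242 and 283 CPM in vHCs and 243, 177, 327 and 227 CPM in OHCs (-3.30 ± 0.48 and -3.51 ± 0.42 against vHCs). Chrna10, the other subunit, ranged from 0 to 19.96 CPM in IHCs against 589, 353, 391 and 363 CPM in vHCs and 653, 280, 327 and 629 CPM in OHCs (-3.55 ± 0.44 and -4.55 ± 0.36). Both were lower in IHCs than in every library of the other HCs. In replicate 3 the 9 cells without Rorb held 66.7% of the Chrna9 and 53.3% of the Chrna10 UMIs. Chrna1, a subunit of the muscle receptor, was higher, at 99.0, 79.8, 15.2 and 28.6 CPM against 36.0, 29.0, 22.7 and 19.9 CPM (1.91 ± 0.42 and 1.32 ± 0.36), with overlapping libraries. Without replicate 3 both of its calls were lost. The difference was then 1.91 in the first comparison, with only replicate 5 left, and 0.86 with all cells (adjusted p = 0.178). With type II vHCs alone as the other side Chrna1 was not called (1.04, adjusted p = 0.0874).

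Most genes of the motile cilium list were lower in IHCs. Of 31 genes tested, 27 were lower in IHCs and 1 was higher, beside 12.9% and 7.77% of all genes, with a median of -4.43, or -3.73 with the 5 genes that had no UMI in the IHCs of this comparison at their limit, and with all cells 29 of 30 were lower and 1 was higher, beside 18.3% and 13.1%. These genes build the axoneme of motile cilia and many are known in the kinocilium of vHCs. The 32 genes summed to 344, 676, 552 and 519 CPM in IHCs and to 6372, 5794, 5998 and 6048 CPM in vHCs. The 9 cells without Rorb held 29.5% of these UMIs in replicate 3, and without them 27 of 31 were still lower, beside 14% of all genes. Tekt2 (tektin 2, chr4:126322121-126325688, minus strand) had a single UMI in IHCs against 124 to 184 CPM in vHCs, Hydin, of the central pair, had UMIs in replicate 3 only, at 3.99 CPM, against 99.5 to 136 CPM, and Dnaic1, a dynein intermediate chain, had 3.99 and 4.09 CPM in replicates 3 and 5 against 108 to 150 CPM. With replicate 3 left out, the calls of Dnaic1 and Hydin were lost. Neither had a UMI in the cells left, so that no direction can be read.

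Tctex1d1, a dynein light chain family gene, was the exception. It stood at 125, 201, 255 and 217 CPM in IHCs and at 119, 78.8, 60.6 and 115 CPM in vHCs (1.87 ± 0.29 and 0.99 ± 0.24), and was also above the OHCs, which held 0 to 36.3 CPM. Rsph1, of the radial spoke, was lower, with 26.1, 79.8, 53.3 and 85.8 CPM against 428, 370, 445 and 391 CPM (-1.82 ± 0.35 and -2.21 ± 0.27). Against type II vHCs alone, Tctex1d1 did not differ by the test (0.09, adjusted p = 0.89). Genes of intraflagellar transport and the BBSome, which build and maintain cilia of any kind, were lower in 11 of 23 and higher in 0. This stood beside 12.9% and 7.77% of all genes, with a median of -1.07. With all cells 12 were lower and 1 higher, beside 18.3% and 13.1%. With all cells but those that lack Rorb 16 were lower, beside 19.1%.

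The promoters of Tekt2 and of the exception Tctex1d1 are shown because the list moved together and X-box half-sites, letters bound by RFX factors, are known near cilium genes. Below are the 250 bases before each start from the RefSeq table (GRCm38.p6), 5′ to 3′ on the gene's strand, chr4:126325689-126325938 on the minus strand and chr4:102978453-102978702 on the plus strand, with GTTGCC and its reverse complement GGCAAC in capitals.
Tekt2: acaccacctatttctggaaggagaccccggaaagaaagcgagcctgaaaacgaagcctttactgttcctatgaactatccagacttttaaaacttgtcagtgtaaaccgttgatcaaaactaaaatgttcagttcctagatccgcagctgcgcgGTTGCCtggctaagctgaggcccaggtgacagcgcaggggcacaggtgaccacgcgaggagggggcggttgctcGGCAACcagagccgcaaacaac
Tctex1d1: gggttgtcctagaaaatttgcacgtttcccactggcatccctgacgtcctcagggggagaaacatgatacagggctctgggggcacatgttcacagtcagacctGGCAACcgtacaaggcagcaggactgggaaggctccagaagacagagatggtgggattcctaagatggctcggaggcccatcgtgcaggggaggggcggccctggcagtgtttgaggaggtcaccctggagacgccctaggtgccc
The letters were present on either strand in 11 of the 28 axoneme genes with a promoter in the table (39.3%), in 11.4% of the promoters of genes tested in either comparison and in 10.5% of all 27025 promoters. Both the gene that was nearly absent and the gene that was higher in IHCs held them. Of the other lower genes whose sequences were read, Hydin held them and Dnaic1 did not. The window of Tctex1d1 runs past the GENCODE start of that gene, chr4:102978606. A match is a description of the sequence, and the motif was picked after the list was seen to move.

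Metabolic lists were counted in the same way. Of 76 nuclear respiratory chain genes tested, 14 were higher in IHCs (18.4% of the list, beside 7.77% of all genes) and 1 was lower (beside 12.9%), with a median of 0.43. Without the cells that lack Rorb these were 17 and 2, beside 7.94% and 14%. With all cells 12 of 77 were higher and 2 lower, beside 13.1% and 18.3% of all genes, with a median of 0.36. Uqcrq, a subunit of complex III, stood at 506, 672, 791 and 776 CPM in IHCs against 261, 286, 310 and 264 CPM in vHCs (1.26 ± 0.25 and 1.35 ± 0.21). Atp5mpl, a small subunit of ATP synthase, was lower, at 483 to 764 CPM against 1242 to 1687 CPM (-0.99 ± 0.27 and -0.86 ± 0.20). The 13 genes of the mitochondrial genome were all above 0 with a median of 0.77, but 0 of 13 passed the test, and with all cells 1 passed. Among all cells the median share of mitochondrial UMIs was 8.44%, 11.7%, 4.93% and 9.31% in the IHCs of replicates 1, 3, 4 and 5 and 5.89%, 7.23%, 2.53% and 5.11% in vHCs. In cells with fewer than 2 supporting cell genes it was 12.7% in replicate 3 against 6.62% in vHCs and 7.12% in the 3 cells of replicate 4 against 2.32%, but 1.93% in replicate 5 against 4.47%, the other direction. The calls of Uqcrq (log2 difference 1.03) and Atp5mpl (-0.60) were lost without replicate 3. Atp5mpl was not lower than in type II vHCs alone (0.73, adjusted p = 0.0688).

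Stress and ageing lists differed in their share of calls. Of 22 heat shock and chaperonin genes, 1 was higher and 1 lower in each comparison, beside 7.77% and 12.9% of all genes in the first and 13.1% and 18.3% in the second. Without the cells that lack Rorb 0 were higher and 2 lower in the first, beside 7.94% and 14%. In the second 1 was then higher and 2 lower, beside 13.4% and 19.1%. Hsp90aa1, the most abundant, stood at 1782, 3149, 1933 and 2567 CPM against 2923, 3044, 2698 and 2336 CPM in vHCs (adjusted p = 0.224 and 0.723), though without replicate 5 it was higher by 0.67 (adjusted p = 0.0427). In the antioxidant list 7 of 21 were higher and 2 lower, beside 7.77% and 12.9% of all genes, with a median of 0.52. With all cells 5 were higher and 4 lower, beside 13.1% and 18.3%. Without the cells that lack Rorb the latter became 4 and 4, beside 13.4% and 19.1%. Prdx6, a peroxiredoxin, was higher in IHCs, at 250, 222, 388 and 257 CPM against 22.7, 42.3, 30.3 and 34.6 CPM, but it stood at 317 CPM in the other cochlear cells, and in the cells with fewer than 2 supporting cell genes it was 114 and 0 CPM. Txnrd1, thioredoxin reductase, was lower, at 41.7, 38.6, 11.4 and 36.8 CPM against 244, 280, 345 and 293 CPM (-2.75 ± 0.43 and -2.94 ± 0.29), and its substrate Txn1 was higher (1.06 ± 0.27 and 0.99 ± 0.27). The reductase levels were separate in every library. Leaving out replicate 3 lost the calls of Txn1 (log2 difference 1.14) and Prdx6. Prdx6 had no UMI in the 10 cells left, so that no direction can be read. The call of Prdx6 in the first comparison was also lost with DESeq2 (1.32, adjusted p = 0.104).

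Among immediate early genes 2 of 7 were higher and 1 lower, beside 7.77% and 12.9% of all genes. Without the cells that lack Rorb these were 2 and 2, beside 7.94% and 14%. With all cells 5 of 10 were higher and 1 lower, beside 13.1% and 18.3%. Btg2 stood at 177, 89.1, 107 and 110 CPM against 15.1 to 38.7 CPM in vHCs (2.38 ± 0.42 and 2.11 ± 0.26), and Jun at 93.8, 98.5, 320 and 98.1 CPM against 22.7 to 47.1 CPM (1.64 ± 0.41 and 2.10 ± 0.35). Both are known to respond to the dissociation of tissue, and its part was not tested. Of 9 cell cycle inhibitor and p53 genes, 1 was higher and 1 lower, beside 7.77% and 12.9% of all genes. Without the cells that lack Rorb these were 2 and 2, beside 7.94% and 14%. With all cells 3 of 10 were higher and 2 lower, beside 13.1% and 18.3%. Cdkn1a, which encodes p21, stood at 146, 59.9, 133 and 77.6 CPM against 5.68 to 25.1 CPM (1.96 ± 0.58 and 1.80 ± 0.28), with 67.5 CPM in the other cochlear cells. Cdkn2d, which encodes p19 and is the most abundant of the list, was not called (0.68 ± 0.26, adjusted p = 0.0507, and 0.64 ± 0.26, adjusted p = 0.0666), but its call depended on the cells used. It was higher in the first comparison without the cells that lack Rorb (0.67, adjusted p = 0.042) and with libraries of 3 or more cells (0.98, 0.000521), and with all cells when replicate 1 of the cochlea was left out (0.85, 0.00295). Leaving out replicate 3 lost the calls of Jun (log2 difference 1.19) and Cdkn1a. Cdkn1a had no UMI in the 10 cells left, so that no direction can be read. With DESeq2 Cdkn1a was not called in the first comparison (1.68, adjusted p = 0.14). Set against type II vHCs alone, Jun (0.55, adjusted p = 0.409), Btg2 (0.69, 0.27) and Cdkn1a (0.51, 0.594) were not called, and Cdkn2d was higher (1.25, 0.00128). The last 2 lists are read beside the same shares of all genes, 7.77% higher and 12.9% lower, and 13.1% and 18.3% with all cells. Without the cells that lack Rorb these shares are 7.94% and 14%, and 13.4% and 19.1% with all other cells. Cytosolic ribosomal protein genes gave 4 higher and 1 lower of 80, 5 higher and 0 lower with all cells, and 4 higher and 5 lower in the first comparison without the cells that lack Rorb. Antigen presentation genes gave 0 higher and 1 lower of 5, 3 lower of 6 with all cells, 3 lower of 5 without the cells that lack Rorb, and 4 lower of 5 with all cells but those.

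**Figure D4:**
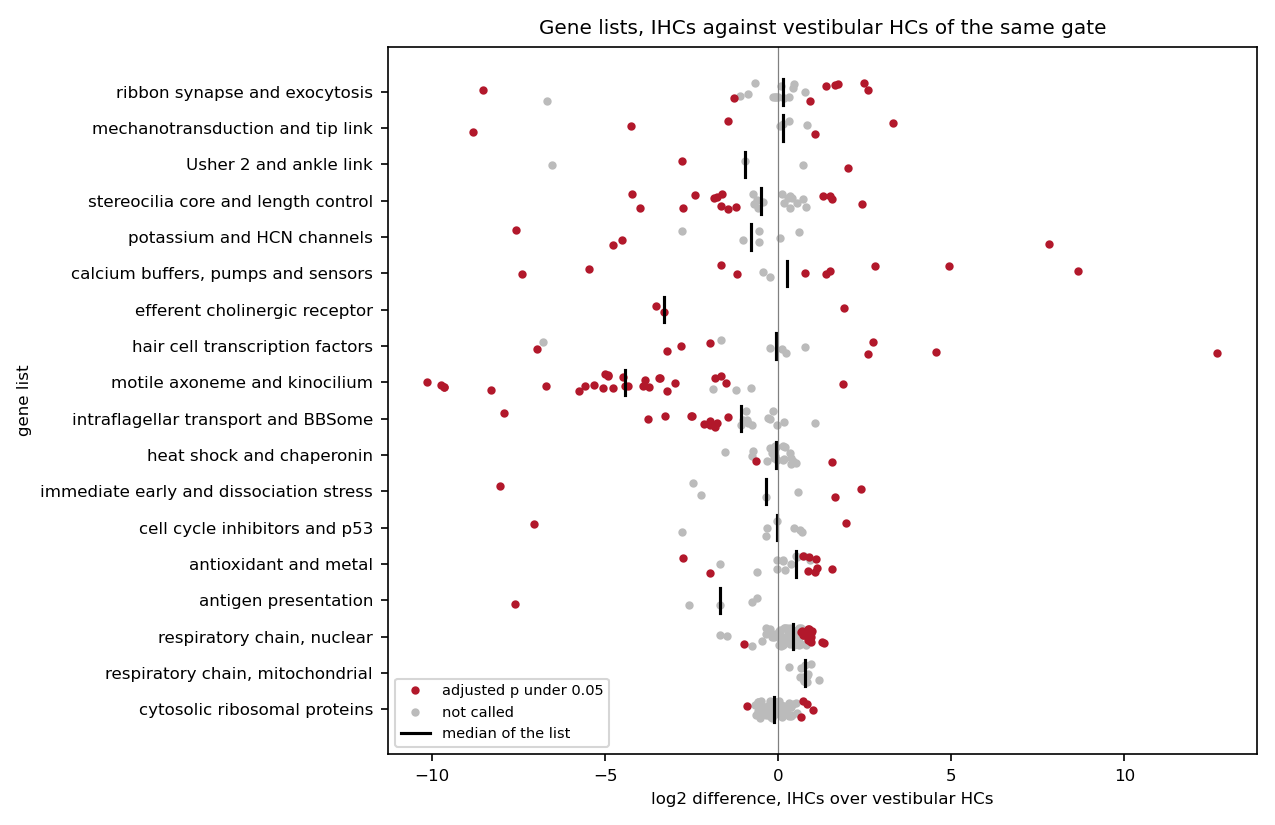
Log2 differences of IHCs over vHCs (x axis) for the tested genes of 18 lists (y axis), in cells with fewer than 2 supporting cell genes. Each point is a gene, red points pass the adjusted threshold of 0.05 and black bars are list medians, and the axoneme list has a median of -4.43 with 27 of 31 genes lower. Fitted values of genes with no UMI in one group depend on the model's prior count.

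Over all genes, the strongest differences outside these lists also had almost separate levels. Ripor3 (chr2:167980164-168010618, minus strand) stood at 276, 241, 388 and 495 CPM in IHCs and had no UMI in the vHCs, at least 593-fold higher. It was nearly absent from OHCs, at 0, 7.36, 0 and 0 CPM, and from the other cochlear cells, at 0.488 CPM. Klhl29 ranged from 54.6 to 64.7 CPM and had no UMI in the vHCs with fewer than 2 supporting cell genes, at least 103-fold higher. Myl4, a myosin light chain gene of atrial and embryonic muscle, stood at 130, 381, 380 and 360 CPM against 0 to 1.68 CPM in vHCs, and Tuba8, an alpha tubulin gene, at 65.2 to 88.6 CPM against 0 to 0.842 CPM. Endod1 and Trim16 were higher in the same way, from 339 to 605 CPM and from 45.7 to 98.1 CPM, against at most 5.68 and 1.89 CPM in vHCs. Aldh1a3, which makes retinoic acid, was lower, at 10.4, 10.6, 0 and 0 CPM against 146 to 256 CPM. Chst2, taken up after its values were seen, stood at 1454, 1201, 936 and 1537 CPM in IHCs, 399 to 880 CPM in OHCs and 4.19 to 7.57 CPM in vHCs.

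Beside OHCs of the same libraries, IHCs were described without a test. Of 2253 genes with at least 100 CPM in either cell type, 686 (30.4%) had separate levels in the 2 IHC libraries and the 4 OHC libraries with fewer than 2 supporting cell genes, and without the genes of the rule 360 were higher and 322 lower in IHCs. Igfbp5, which encodes a secreted binding protein of insulin-like growth factors, was the most abundant of the genes higher in IHCs. It stood at 10226, 6719, 4356 and 7471 CPM in IHCs, at 137, 397, 36.3 and 50.4 CPM in OHCs and at 186 to 309 CPM in vHCs, but it was present in the other cochlear cells at 1722 CPM and fell to 923 CPM in the shallow cells of replicate 5. Id1, an inhibitor of helix-loop-helix factors, ranged from 151 to 285 CPM in IHCs and had no UMI in OHCs. Nrgn, the calmodulin-binding protein neurogranin, stood at 67.8, 83.8, 49.5 and 69.5 CPM in IHCs, against 0, 7.36, 0 and 0 CPM in OHCs and 0 to 2.09 CPM in vHCs. It was therefore low in both other HC groups, as was Atp2a3, with 0, 80.9, 0 and 25.2 CPM in OHCs.

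On the other side, C1ql1, which encodes a secreted C1q-like protein, stood at 637, 147, 399 and 504 CPM in OHCs and at 0, 0, 15.2 and 0 CPM in IHCs. Calb1, the buffer calbindin, had no UMI in IHCs against 50.4 to 291 CPM in OHCs. Lmod3, an actin nucleator, ranged from 80.9 to 472 CPM in OHCs and from 0 to 64.7 CPM in IHCs, Strip2 from 368 to 1235 CPM and from 7.61 to 41.7 CPM, and Ikzf2 from 243 to 592 CPM and from 16.3 to 52.1 CPM. IHC levels of the last 3 came from cells with 2 or more supporting cell genes, except for Strip2 in replicate 3, at 12.6 CPM. Pcp4, a calmodulin regulator, was shared, with 7630, 13075, 17661 and 14116 CPM in IHCs and 18257, 15844, 22151 and 27820 CPM in OHCs, against 549 to 1426 CPM in vHCs (4.42 ± 0.30 and 3.56 ± 0.32 against vHCs).

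**Figure D5:**
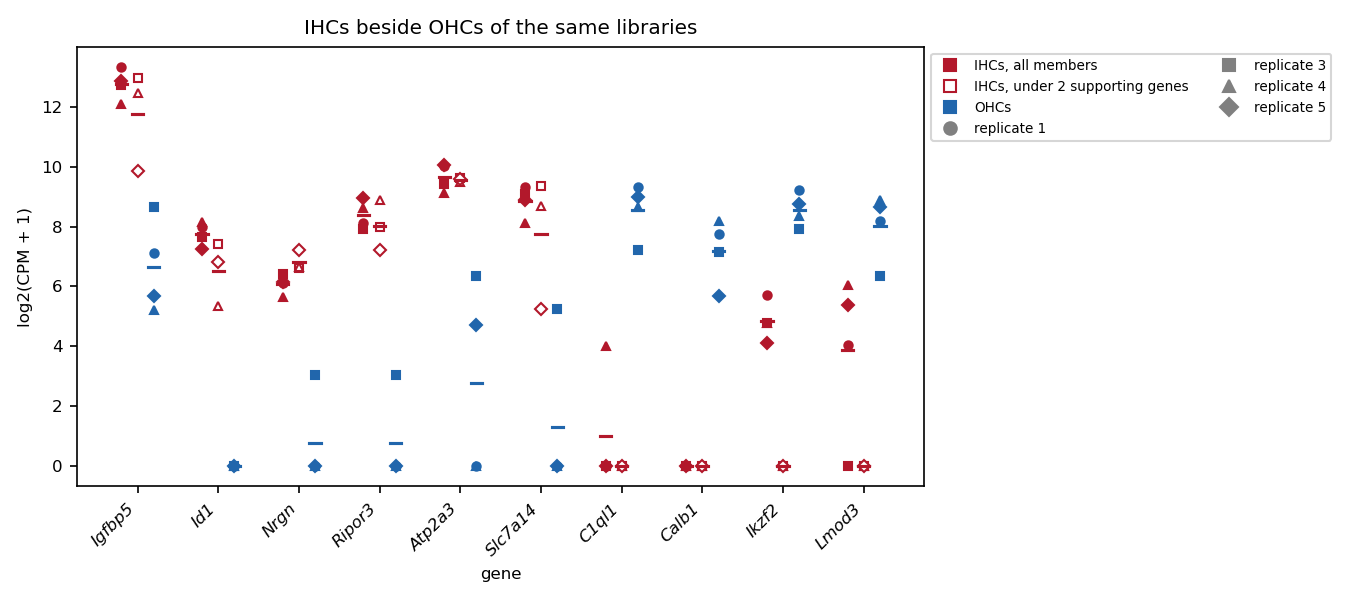
Genes with the highest and lowest ratios of IHCs to OHCs, with level on the log2(CPM + 1) scale (y axis) by gene (x axis). Each point is a library, filled red for all IHCs, open red for IHCs with fewer than 2 supporting cell genes and blue for OHCs, and short lines are means. Igfbp5, Id1, Nrgn, Ripor3, Atp2a3 and Slc7a14 are higher in IHCs, and C1ql1, Calb1, Ikzf2 and Lmod3 are higher in OHCs.

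Among the IHCs themselves, variation was compared after thinning each cell to 1000 UMIs. Of 260 genes with a mean of at least 0.5 UMI, the median ratio of variance to mean was 1.21, and it was over 2 for 26 genes. The most variable were Hbb-bs at 66.6, which came from the single cell of replicate 4, and Spp1 at 37.1, which came from the 9 cells of replicate 3. Malat1, a nuclear RNA, followed at 12.2, then Pcp4 at 8.99, Gm42418 at 6.88 and mt-Atp6 at 4.95, with the libraries pooled. Within replicate 3 alone the order changed, with Gm42418 at 6.06, Pcp4 at 5.44, S100a1 at 4.70 and mt-Atp6 at 2.84. The library means also differed. The mean of mt-Atp6 per cell was 14.9, 19.1, 6.07 and 9.75 UMIs in replicates 1, 3, 4 and 5, and that of Pcp4 was 9, 13.1, 20.9 and 22.3 UMIs. S100a1, at 3.97, split with the supporting cell genes, with a mean of 1.62 UMIs in the 42 cells against 5.25 UMIs in all 119. Calb2 varied less, at 2.02, and was found in 97 of the 119 thinned cells, Slc17a8, at 1.80, in 83 and Rorb, at 1.70, in 90.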

How the data were processed

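Single-cell 3′ libraries of 5 cochlear and 5 vestibular samples were used, as the labels give them. The series' design text gives other numbers of replicates per organ. The authors deposited raw UMI counts per gene and cell barcode, made per the labels with Cell Ranger 6.1.2 on mm10, and the depth of each IHC population is given above. Cells were filtered at 200 genes, 1000 UMIs and 25% mitochondrial UMIs, and no doublet caller was run. Counts were summed per library and cell group, and libraries with at least 5 cells were tested with edgeR 4.0.16 (TMM, quasi-likelihood) in R 4.3.3, with DESeq2 1.42.0 as an alternative. Shares have 95% exact binomial intervals, and a floor is 3 counts. On simulated data, 71.5% of genes changed by 2 on the log2 scale were recovered with cells of 2 or more supporting cell genes left out (8654 genes) and 99.0% with all cells (9287 genes). Named genes were the markers, up to 3 most abundant and 3 most changed per list and direction, the 10 most changed and most abundant of all genes, and the extremes beside OHCs and in variation. Chst2, Atp2b1, Cacna1d, Ptprq, Rorb with Spp1 as a split, and the promoter motif were added after their values were seen. The members and lists were chosen with earlier results of these data known. Some genes named by this rule are not reported here.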

Additional observations from a re-analysis of the deposited data

Results flagged for a closer look

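Of 91 groups of 4 IHC libraries examined, 16 had 1 library far from the other 3. Chance gives about 1 in 20, but this rate does not apply where 3 libraries hold no UMI, since any UMI in the fourth then sets it apart, so 16 of 91 is not read against it. In replicate 3 the high values were Cib3 at 45.2 CPM, Adam11 at 11.97 CPM, Meis2 at 9.31 CPM, Myo3b at 6.65 CPM, Kcnh7 at 5.32 CPM and Tekt2 at 1.33 CPM, with no UMI in the other libraries, and Spp1 at 1438 CPM. All UMIs of the first 6 genes and 99.6% of those of Spp1 were in the 9 cells without a Rorb UMI. Hydin, at 3.99 CPM in replicate 3, had no UMI in the others.

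In replicate 4 the values apart were Hbb-bs at 9819 CPM, almost all from 1 cell, Cib2 at 2131 CPM, Jun at 320 CPM and C1ql1 at 15.2 CPM, which had no UMI in the others, all higher, and Txnrd1 at 11.4 CPM, lower. In replicate 1, where every IHC held 2 or more supporting cell genes, Otog at 188 CPM and Eya1 at 141 CPM were higher and Myl4 at 130 CPM was lower than in the other libraries.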

How the results depend on the processing

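With cells of 2 or more supporting cell genes left out, 42 IHCs remained, and with them kept there were 119. The comparison called 681 genes higher and 1127 lower. The count called higher was 326 with the replicate block, 452 against type II vHCs, 1238 with those cells kept and 1430 with them kept in the cochlea only, and 84 to 731 when each library was left out. With the cells kept it was 1251 without the cells that lack Rorb, 1229 with DESeq2, 1619 with the block, and without cochlear replicates 1, 3, 4 and 5 and vestibular replicates 1, 3, 4 and 5 in turn it was 1396, 1016, 1176, 1137, 1303, 1010, 1052 and 1058. The count called lower was 546, 739 and 1719 under the first 3 of these, and 282 to 1167 over the libraries left out. With the cells kept it was 1784, 1719 and 2016 under the same settings and, with the libraries left out in the same order, 1896, 1545, 1797, 1704, 1731, 1494, 1547 and 1559. DESeq2 called 469 and 757. RLE scaling moved the median of all genes from -0.19 to -0.31.

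Of 79 named genes tested, these turned direction, and the cause was not tested. Without replicate 3 they were Slc7a14, Whrn, Prdx6, Cdkn1a and Atp2b1, whose lowest values, without replicate 3 of the cochlea, and highest values, without replicate 5, were -0.60 and 4.23, -0.24 and 2.21, -8.14 and 1.83, -6.81 and 2.22, and -0.050 and 1.71. Prdx6 and Cdkn1a had no UMI in the 10 cells left without replicate 3, so these values depend on the prior count. Ikzf2 had no UMI in the IHCs of the first comparison, so its direction there depends on it as well. Against type II vHCs they were Kcna10 (0.76) and Atp5mpl (0.73). With the cells kept, S100a1 and Ikzf2 were 0.77 and 0.30, without the cells that lack Rorb 0.76 and 0.27, with DESeq2 0.76 and 0.27, and with the block 0.77 and 0.34. With the libraries left out in the same order, S100a1 was 0.80, 0.81, 0.57, 0.87, 0.72, 0.79, 0.87 and 0.64, and Ikzf2 0.10, 0.33, 0.30, 0.47, 0.45, 0.15, 0.14 and 0.34. With the cells kept in the cochlea only, S100a1 was 0.91, Ikzf2 0.72, Otog 2.33 and Slitrk6 3.19.

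The correlations of same-numbered cochlear and vestibular libraries were 0.33, 0.18, 0.26 and 0.06 with all cells, and each library correlated best with its own number, which is a hint from the data and not from the design. In the first comparison the block lost the calls of 10 named genes, Tmie, Lhfpl5, Pclo, Cacna1d, Atp2b1, Txn1, Slc8a1, Ikzf2, Cdkn1a and Prdx6, with adjusted p from 0.058 to 0.239. Replicates 1 and 4 of the cochlea had too few cells for the first comparison, so leaving them out there gave no value. The alternatives with cells kept, and those without the cells that lack Rorb, were chosen after seeing the data, except the count with cells kept on both sides. Depth limited the 10 cells of replicate 5, where 1 UMI equals 36.9 CPM.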
